A study of Mus musculus with 28 samples.

Results

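In microglia, the resident macrophages of the brain, 897 of 26326 genomic regions carried less of the repressive histone mark H3K27me3 in both CD229+ subsets of demyelinating brains than in microglia of healthy brains. They were chosen from the measured values: tag counts of each library were scaled to CPM, with all regions of a library summing to 1e6, and averaged per group of 3 libraries. A region was kept if its basal mean was at least 10 CPM and the log2 of the group mean over the basal mean was -0.4 or less in both CD229+CD11c+ and CD229+CD11c- microglia. Of the 21033 regions with a basal mean that high, 1340 reached this fold in CD229+CD11c+ cells and 2886 in CD229+CD11c- cells, and 4.26% reached it in both. Both folds against basal microglia are therefore a description of the choice and carry no test. The last regions inside the limit lay nearest to Cpeb1, 5031425E22Rik and Adam6b, each with a higher fold of -0.40, and the first outside it nearest to Etv3l, 4930564D02Rik and Ipo11, also at -0.40.

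The mark was measured by ChIP-seq, in which DNA bound to the modified histone is pulled down and sequenced, in microglia sorted from brains of adult male wild-type C57BL/6 mice. CD229+CD11c+, CD229+CD11c- and CD229-CD11c- microglia came from mice fed 0.2% cuprizone, a toxin that kills myelin-forming oligodendrocytes, for 4 weeks. CD229 is a SLAM family receptor and CD11c an integrin. Basal microglia, sorted with low CD44, CD45 and CD11b, came from mice on a regular diet. Each group had 3 H3K27me3 libraries, with replicates 3, 4 and 5 in the basal group, and 7740002 to 11362168 tags per library in the regions. Brains of 2 to 6 mice were pooled. The labels do not say that the replicates are separate pools of mice, so a p-value here covers the spread among libraries, which may be technical. In the members, replicate 3 of the CD229-CD11c- group stood apart from replicates 1 and 2 and lay at basal levels; the comparisons with that group are given with and without it. Diet and sort gate differ together between the cuprizone subsets and the basal group, so they cannot be told apart. In a pool of sorted cells, fewer cells carrying the mark and less mark per cell cannot be told apart either.

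H3K27me3 is written by Polycomb repressive complex 2 (PRC2), whose catalytic subunit methylates lysine 27 of histone H3, and it is removed by the demethylases Kdm6a and Kdm6b or diluted when DNA is copied. The mark covers genes that are held silent, most densely around transcription starts rich in CpG dinucleotides, and weakly over long stretches of silent DNA between genes. In macrophages many genes of activation, such as those of the interferon response, can be covered by it at rest.

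Many of the regions with the lowest folds lay over transcription starts of genes of activated microglia. The starts of 7 such members, 6 activation genes and the cell cycle gene Rrm2, are shown for the CpG content that the mark is known to follow. Each run covers the 250 bases before and the 50 bases after the RefSeq start in the mouse build GRCm38.p6 (mm10), 5′ to 3′ on the gene's strand, and capitals mark CpG dinucleotides. The Lgals3 start lies at chr14:47373610-47373909 on the plus strand, that of Egr2 at chr10:67537680-67537979 (plus), that of Apoe at chr7:19698349-19698648 (minus) and that of Axl at chr7:25788684-25788983 (minus). The Maff start lies at chr15:79348152-79348451 (plus), that of Ch25h at chr19:34475099-34475398 (minus) and that of Rrm2 at chr12:24708004-24708303 (plus).
Lgals3: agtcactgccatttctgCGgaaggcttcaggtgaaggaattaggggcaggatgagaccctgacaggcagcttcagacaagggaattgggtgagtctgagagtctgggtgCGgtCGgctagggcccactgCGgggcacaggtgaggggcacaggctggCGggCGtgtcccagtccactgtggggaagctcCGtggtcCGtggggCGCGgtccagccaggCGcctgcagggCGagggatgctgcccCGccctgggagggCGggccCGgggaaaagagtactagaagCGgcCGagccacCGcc
Egr2: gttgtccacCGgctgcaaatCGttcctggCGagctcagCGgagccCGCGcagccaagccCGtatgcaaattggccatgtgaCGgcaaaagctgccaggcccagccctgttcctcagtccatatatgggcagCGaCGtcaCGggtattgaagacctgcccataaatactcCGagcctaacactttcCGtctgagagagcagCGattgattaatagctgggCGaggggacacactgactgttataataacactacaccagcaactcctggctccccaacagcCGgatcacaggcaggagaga
Apoe: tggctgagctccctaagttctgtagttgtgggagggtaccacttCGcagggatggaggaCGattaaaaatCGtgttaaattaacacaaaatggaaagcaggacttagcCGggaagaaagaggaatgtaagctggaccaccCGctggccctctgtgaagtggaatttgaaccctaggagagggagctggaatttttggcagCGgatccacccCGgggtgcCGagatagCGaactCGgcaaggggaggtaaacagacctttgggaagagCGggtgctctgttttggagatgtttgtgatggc
Axl: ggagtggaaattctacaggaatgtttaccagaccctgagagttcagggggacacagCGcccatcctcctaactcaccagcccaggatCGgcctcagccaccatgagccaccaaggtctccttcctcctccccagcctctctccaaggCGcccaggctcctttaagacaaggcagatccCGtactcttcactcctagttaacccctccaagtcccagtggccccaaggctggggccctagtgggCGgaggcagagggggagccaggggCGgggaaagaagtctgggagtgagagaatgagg
Maff: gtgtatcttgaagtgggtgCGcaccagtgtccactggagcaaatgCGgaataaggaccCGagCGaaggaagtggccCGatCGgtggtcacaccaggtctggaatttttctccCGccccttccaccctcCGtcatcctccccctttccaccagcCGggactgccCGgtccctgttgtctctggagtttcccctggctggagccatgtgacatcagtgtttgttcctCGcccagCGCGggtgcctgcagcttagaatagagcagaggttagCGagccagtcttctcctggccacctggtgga
Ch25h: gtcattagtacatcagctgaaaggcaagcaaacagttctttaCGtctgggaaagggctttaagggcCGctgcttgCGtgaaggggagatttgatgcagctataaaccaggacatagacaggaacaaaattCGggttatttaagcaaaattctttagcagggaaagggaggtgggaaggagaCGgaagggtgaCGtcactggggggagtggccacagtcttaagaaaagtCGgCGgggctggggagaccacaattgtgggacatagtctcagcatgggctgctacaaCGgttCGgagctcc
Rrm2: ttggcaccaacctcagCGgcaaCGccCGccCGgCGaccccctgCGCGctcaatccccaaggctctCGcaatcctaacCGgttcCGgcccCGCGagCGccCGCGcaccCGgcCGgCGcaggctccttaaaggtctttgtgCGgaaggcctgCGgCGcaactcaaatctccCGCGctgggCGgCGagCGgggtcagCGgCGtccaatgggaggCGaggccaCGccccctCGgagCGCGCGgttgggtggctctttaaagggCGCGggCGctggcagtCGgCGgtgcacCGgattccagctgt

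These starts differed widely in CpG content: the 300 bases held 40 CpG at Rrm2, 18 at Lgals3, 16 at Egr2, 14 at Maff, 11 at Apoe, 10 at Ch25h and 6 at Axl. Of these 7 windows only that of Egr2 reached past the edge of its region. Over the 147 RefSeq start windows within or across the 897 regions the median was 8 CpG, against 8 over the 7428 windows in all regions with a basal mean of 10 or more. Windows in the 403 regions at +0.4 or more in both CD229+ subsets had a median of 20 CpG. The 46 windows in members with a mean log2 fold of -0.7 or less had a median of 13.5. The cAMP response element TGACGTCA was found on either strand in the Ch25h window and in 1.36% of the members' windows, against 1.33% of the windows in regions with that basal mean and 1.79% of all 32817 RefSeq start windows. The AP-1 motif TGANTCA was found on either strand in 10.2% of the members' windows, against 7.44% and 7.81% of those 2 sets of windows, and in 6.52% (3 of 46) of the windows in members with a mean fold of -0.7 or less. A match is a run of letters, and binding was not measured.

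The region over the start of Lgals3, which encodes the lectin galectin-3 of activated phagocytes, had the lowest mean of the 2 folds and the lowest fold in CD229+CD11c+ microglia. It lies at chr14:47372854-47376837 and held 2.40, 2.69 and 3.52 CPM in CD229+CD11c+ microglia and 5.64, 6.64 and 8.63 in CD229+CD11c- microglia. It held 12.7, 14.6 and 16.9 in CD229-CD11c- microglia and 22.2, 19.4 and 21.1 in basal microglia. The 4 groups did not overlap, with CD229+CD11c+ libraries lowest and basal libraries highest. The log2 fold over basal was -2.86 in CD229+CD11c+ microglia, -1.58 in CD229+CD11c- microglia and -0.50 in CD229-CD11c- microglia.

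The region over Egr2, a zinc-finger transcription factor of the early growth response family, had unequal levels in the 2 CD229+ subsets. It lies at chr10:67537781-67541170 and held 2.60, 2.46 and 3.17 CPM in CD229+CD11c+ cells and 7.65, 12.1 and 12.03 in CD229+CD11c- cells. It held 13.9, 12.8 and 18.9 in CD229-CD11c- cells and 18.1, 14.7 and 18.8 in basal cells. The CD229+CD11c+ libraries stood far below the rest, the CD229+CD11c- libraries lay below those of the other two groups without overlap, and CD229-CD11c- and basal libraries overlapped. The log2 folds over basal were -2.65 in CD229+CD11c+ and -0.70 in CD229+CD11c- cells. The values rest on 22 to 36 tags per library in CD229+CD11c+ cells and 150 to 210 in basal cells.

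The region at Apoe, the main lipid carrier of the brain, held 2.00, 14.1 and 3.08 CPM in CD229+CD11c+ cells and 6.19, 5.87 and 7.56 in CD229+CD11c- cells. It held 13.2, 15.1 and 18.7 in CD229-CD11c- cells and 20.4, 22.4 and 20.2 in basal cells. CD229+CD11c+ replicate 2 stood apart from the other two libraries of its group and lay among the CD229-CD11c- values. The mean was 6.39 ± 6.70 CPM in CD229+CD11c+ cells and 21.0 ± 1.19 in basal cells (SD, n = 3 each).

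The region at Axl, a receptor kinase that recognises dying cells through a bridging ligand, held 3.69, 2.13 and 4.84 CPM in CD229+CD11c+ cells, 4.82, 3.76 and 6.39 in CD229+CD11c- cells, 6.21, 7.49 and 14.4 in CD229-CD11c- cells and 13.5, 13.1 and 12.7 in basal cells. Both CD229+ groups lay below all basal libraries. In CD229-CD11c- cells replicates 1 and 2 lay below them and replicate 3 above. The same split of replicate 3 stood at Maff, which encodes a small Maf factor that pairs with stress and activation factors, with 6.32, 7.49 and 12.7 in CD229-CD11c- cells against 11.7, 11.9 and 11.99 in basal cells. At Maff the level was 3.53 ± 0.53 CPM in CD229+CD11c+ cells and 3.64 ± 0.125 in CD229+CD11c- cells (SD, n = 3 each). A region that the authors added under the name of a long isoform of Bhlhe40, a basic helix-loop-helix transcription factor, and that is annotated as intronic and nearest to 0610040F04Rik, had log2 folds over basal of -1.84 in CD229+CD11c+ and -1.56 in CD229+CD11c- cells. It lies inside a member of 109 kb, so its tags are counted in both.

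The region with the second lowest mean fold lies in an intron of Rab7b, a small GTPase of late endosomes, 0.56 kb from its start, and its log2 fold over basal of -1.76 was the lowest of all in CD229+CD11c- cells. It held 2.296, 1.23 and 3.08 CPM in CD229+CD11c+ cells and 2.73, 2.10 and 4.47 in CD229+CD11c- cells. It held 7.58, 8.14 and 11.2 in CD229-CD11c- cells and 8.21, 12.4 and 11.01 in basal cells. Here the CD229+ subsets overlapped each other and lay below both other groups, and CD229-CD11c- and basal libraries overlapped. Cd72, an inhibitory receptor of B cells and myeloid cells, had log2 folds over basal of -1.84 in CD229+CD11c+ and -1.14 in CD229+CD11c- cells. Fam20c, a kinase of secreted proteins, had -1.60 in CD229+CD11c+ and -1.26 in CD229+CD11c- cells, and Etl4 had -1.62 in CD229+CD11c+ and -1.33 in CD229+CD11c- cells. Fblim1, a filamin-binding adaptor, had -1.33 in CD229+CD11c+ and -1.18 in CD229+CD11c- cells. In the 15 members with the lowest mean fold, all libraries of both CD229+ subsets lay below all basal libraries. The 15 were ranked by those folds, which favours this separation. Over all regions 21% were so separated in CD229+CD11c+ and 31.4% in CD229+CD11c- cells. All CD229-CD11c- libraries lay below all basal libraries in 4 of the 15, Lgals3, Apoe, Fam20c and Irf7, where 5.77% of all regions did so.

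**Figure D1:**
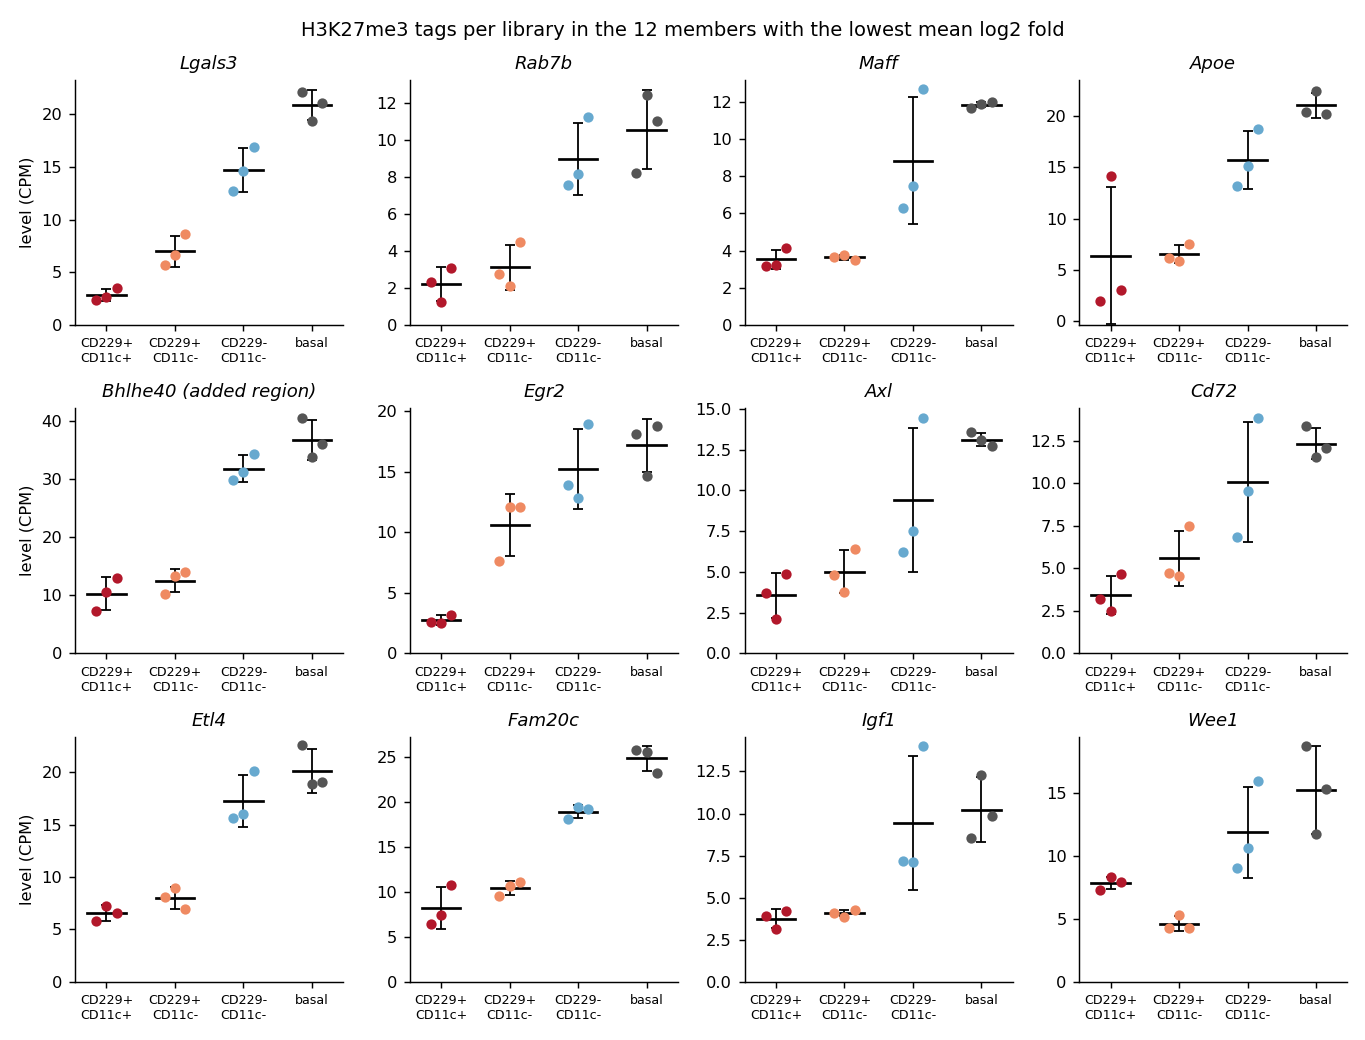
H3K27me3 level in CPM (y axis, linear) for the 12 members with the lowest mean log2 fold, with 1 point per library, a line at the mean of 3 libraries and bars of 1 SD. In all 12 both CD229+ means lie below the CD229-CD11c- and basal means, and CD229+CD11c+ replicate 2 at Apoe, at 14.1, stands apart from its group.

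Most of the 897 regions had smaller folds than these. The median log2 fold over basal was -0.50 in CD229+CD11c+ microglia (quartiles -0.60 and -0.44) and -0.58 in CD229+CD11c- microglia (quartiles -0.70 and -0.48). Over all regions with that basal mean the medians were -0.08 in CD229+CD11c+ and -0.16 in CD229+CD11c- cells, so regions in general also lay below 0. The level was at or below 50% of basal in 33 members in CD229+CD11c+ cells, in 51 in CD229+CD11c- cells and in 23 in both, while 284 had a mean fold between -0.5 and -0.4. With TMM factors, which centre the bulk of regions on no change, 361 regions met the rule, and all 361 were among the 897. On that scale the medians of the members were -0.43 in CD229+CD11c+ and -0.44 in CD229+CD11c- cells.

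**Figure D2:**
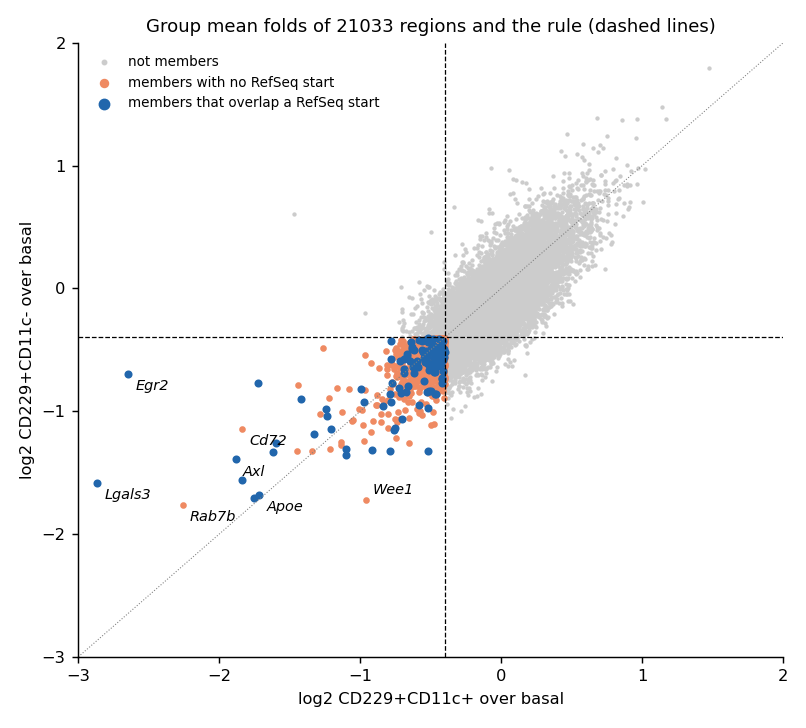
Log2 of the CD229+CD11c+ mean over the basal mean (x) against log2 of the CD229+CD11c- mean over the basal mean (y) for the 21033 regions with a basal mean of 10 or more. Members fill the corner below both dashed lines at -0.4, blue points overlap a RefSeq start, and the dotted line marks equal folds; Egr2 lies at -2.65 and -0.70.

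Separation between libraries was read against the whole table. All 3 CD229+CD11c+ libraries lay below all 3 basal libraries in 814 members, where 21% of all regions did so, and all 3 CD229+CD11c- libraries in 838, where 31.4% of all regions did. Both held in 773 members (86.2%), and in 16.7% of the regions that met the rule's basal minimum. In edgeR's quasi-likelihood test with Benjamini-Hochberg adjustment over all regions, 257 members were called lower in CD229+CD11c+ cells (1.47% of all regions) and 374 in CD229+CD11c- cells (3.47%). The rule used the same libraries, so nothing is read from these counts beyond the description.

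The rule did not use the libraries of CD229-CD11c- microglia. Their mean was above both CD229+ means and below the basal mean in 831 members (92.6%), where 32.6% of regions with that basal mean had this order. Without CD229-CD11c- replicate 3 it was so in 775 members. The rule chose low CD229+ means and a high basal mean, which favours this order, so the count is a description and nothing is read from it. The members' median log2 fold of CD229-CD11c- over basal was -0.16 on the TMM scale, against 0.00 over regions with that basal mean. It was below 0 in 827 members (92.2%) and in 48.7% of regions with that basal mean. Without CD229-CD11c- replicate 3 the median was -0.255, against -0.002 over all regions. No member was called by edgeR's quasi-likelihood test with adjusted p-values, as 0% of all regions were (0 by DESeq2). An unadjusted p under 0.05 was reached in edgeR by 95 of the 897 members and by 1103 of all 26326 regions. It was reached by 78 members in DESeq2 and by 299 in edgeR without CD229-CD11c- replicate 3. For neither of these fits was the count over all regions taken. All 3 CD229-CD11c- libraries lay below all basal libraries in 165 members, where 5.77% of all regions did so.

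The level was not the same in all CD229-CD11c- libraries. The members' median log2 level relative to the basal mean was -0.32 and -0.27 in replicates 1 and 2 and -0.02 in replicate 3. Replicates 3 of CD229+CD11c+ and CD229+CD11c- microglia were also the highest of their groups, at -0.44 and -0.51, but both lay below every CD229-CD11c- library. The titles of replicates 3 and of basal replicate 3 lack the tag PE150 that the other 8 libraries carry, and the tag is not explained in the sources used here. Among tagged libraries alone the median fold over basal was -0.55 in CD229+CD11c+ cells, -0.61 in CD229+CD11c- cells and -0.27 in CD229-CD11c- cells. Between the untagged libraries, 1 per group, it was -0.47 in CD229+CD11c+ cells, -0.55 in CD229+CD11c- cells and -0.05 in CD229-CD11c- cells. With the tagged libraries alone edgeR called 44 members (4.91%) lower in CD229-CD11c- than in basal cells, where 0.49% of all regions were lower and 2.99% higher. With the tag as a covariate it called 1 member lower, the only region called lower, while 0.122% of all regions were called higher. Without CD229-CD11c- replicate 3 it called 2 members lower, again the only regions called lower, while 0.106% were called higher. The part of the tag in these values was not tested.

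**Figure D3:**
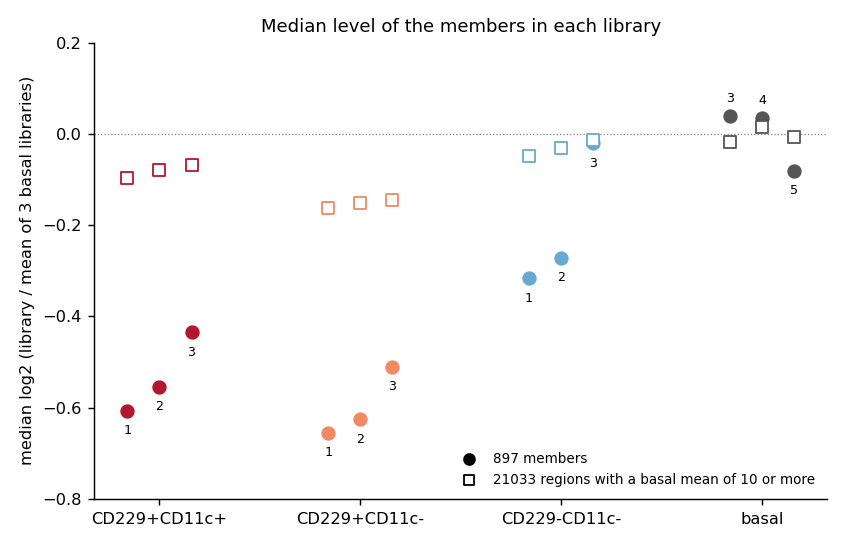
Median log2 of each library over the mean of the 3 basal libraries (y) for the 897 members (filled circles, with replicate numbers) and for the 21033 regions with a basal mean of 10 or more (open squares), by group (x). The members lie at -0.61 to -0.44 in CD229+CD11c+ and at -0.66 to -0.51 in CD229+CD11c- libraries, while CD229-CD11c- replicate 3, at -0.02, lies at the level of the basal libraries.

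Against CD229-CD11c- cells from the same diet, the members' median log2 fold was -0.28 in CD229+CD11c+ and -0.28 in CD229+CD11c- cells, on the TMM scale. Without CD229-CD11c- replicate 3 these medians were -0.196 in CD229+CD11c+ and -0.194 in CD229+CD11c- cells. Of the members, 33 were called lower in CD229+CD11c+ than in CD229-CD11c- cells by edgeR with adjusted p-values, where 0.152% of all regions were. In CD229+CD11c- cells 138 were called lower than in CD229-CD11c- cells, where 1.6% of all regions were. Without CD229-CD11c- replicate 3 the members called lower numbered 36 in CD229+CD11c+ cells (0.171% of all regions) and 86 in CD229+CD11c- cells (2.01% of all regions). With the replicate number as a block in the 9 cuprizone libraries they numbered 195 in CD229+CD11c+ cells (1.79% of all regions) and 281 in CD229+CD11c- cells (5.47% of all regions). In those libraries with no block they numbered 27 in CD229+CD11c+ cells (0.122% of all regions) and 106 in CD229+CD11c- cells (1.1% of all regions). The CD229+ levels were chosen as low, so these counts describe the members and test nothing.

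The 2 CD229+ subsets were compared by a test, since the rule asked both to be low but not which was lower. The rule left out regions that were low in a single subset. The median difference and the share called are therefore partly bound to the choice. The members' median log2 difference, CD229+CD11c+ over CD229+CD11c-, was -0.01 on the TMM scale, with quartiles of -0.09 and 0.10, and 470 of 897 were below 0. On total-count scaling the median was 0.06, beside 0.07 over all regions. Egr2 fell in CD229+CD11c+ relative to CD229+CD11c- cells by 1.99 ± 0.23 on the log2 scale (SE, edgeR quasi-likelihood test, adjusted p = 0.00027, lower in 3 of 3 libraries). Lgals3 fell by 1.32 ± 0.22 (edgeR, adjusted p = 0.00723, lower in 3 of 3 libraries). In this fit of all 12 libraries these 2 members were the only ones called lower, where 0.771% of all regions were. In it 0 were called higher, where 0.0532% of all regions were. An unadjusted p under 0.05 in edgeR was reached by 34 of the 897 members and by 3381 of all 26326 regions. With the replicate number as a block in the 9 cuprizone libraries, 11 members were called lower and 10 higher. In that fit 6.51% of all regions were called lower and 1.85% higher.

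Lgals3 lost its call without CD229+CD11c- replicate 3 (edgeR adjusted p = 0.061) and without CD229+CD11c+ replicate 1 or 2 (adjusted p = 0.0692 and 0.0817), with log2 values of -1.14 to -1.28. Egr2 kept its call under every alternative that gave an adjusted p, with log2 values of -2.18 to -1.88. With the PE150 tag as a covariate 11 members (1.23%) were called lower and 8 (0.892%) higher, where 5.91% of all regions were called lower and 1.39% higher. Without CD229-CD11c- replicate 3 there were 6 lower and 5 higher, where 2.81% of all regions were called lower and 0.342% higher. Without 1 library of the 2 subsets compared the count was 1 to 4, and with the tagged libraries alone it was 12, with 7 lower and 5 higher, where 4.33% of all regions were called lower and 0.972% higher. DESeq2 gave an adjusted p to 119 of the members, not to Egr2 or Lgals3, and called 1 member higher. In the authors' deposited table Egr2 has a log2 fold of -1.997 and p = 8.81e-13, and Lgals3 has -1.33 and p = 8.9e-06, with an adjusted p listed at 1.0 for both; the sources used here do not say whether that 1.0 stands for a missing value. The authors' deposited table calls 2 members higher, Oasl2, at 0.48 with an adjusted p of 0.00275, and Slc2a6, at 0.33 with an adjusted p of 0.0101. It calls 0 members lower, while over all regions it calls 31 higher and 668 lower.

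Several members near the threshold of the test differed in opposite directions. Inf2, a formin that builds actin filaments, had 10.4 ± 1.64 CPM in CD229+CD11c+ and 14.8 ± 1.75 in CD229+CD11c- cells (SD, n = 3 each), a log2 difference of -0.58 ± 0.14 (edgeR adjusted p = 0.0556). Pdgfa, a growth factor for oligodendrocyte precursors, had 5.66 ± 1.58 CPM in CD229+CD11c+ and 8.92 ± 1.65 in CD229+CD11c- cells, a difference of -0.71 ± 0.20 (edgeR adjusted p = 0.0954). Rrm2, a subunit of the enzyme that makes deoxynucleotides, had 10.2 CPM in CD229+CD11c+ and 5.81 in CD229+CD11c- cells, a difference of 0.75 ± 0.19 (edgeR adjusted p = 0.0644); it was chosen after its values were seen. None of these 3 differences passed the threshold.

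**Figure D4:**
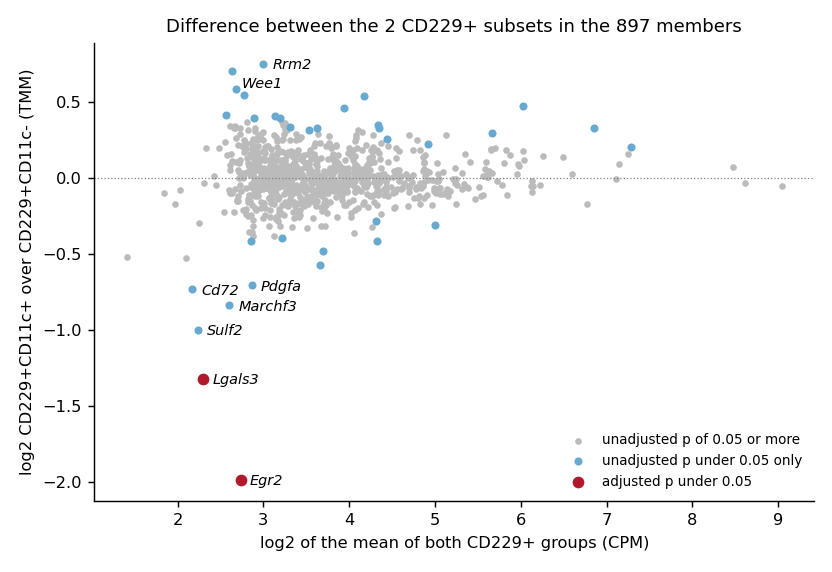
Log2 difference between CD229+CD11c+ and CD229+CD11c- microglia on the TMM scale (y) against the log2 mean level of both groups in CPM (x) for the 897 members. Egr2 at -1.99 and Lgals3 at -1.32 (red) passed the adjusted threshold of 0.05, and the blue points reached only an unadjusted p under 0.05.

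Overlap with a start was most frequent among the members with the lowest folds. Of the 35 members with a mean log2 fold of -1 or less, 18 (51.4%) overlapped a RefSeq start window and 25 (71.4%) had their centre within 5 kb of the nearest start. Of the 94 between -1 and -0.7, 16 (17.0%) overlapped a start, as did 55 of 484 (11.4%) between -0.7 and -0.5 and 26 of 284 (9.15%) between -0.5 and -0.4. Over all members the share was 12.8%, against 23.5% of regions with that basal mean and 66.3% of the 403 regions at +0.4 or more in both subsets. Members were short, with a median of 5391 bp against 7962 bp. The centre lay within 5 kb of the nearest start in 17.8% of members, against 20.4% of regions with that basal mean and 75.2% of the 403. With TMM factors in the rule the share overlapping a start was 16.9%. Both members called between the CD229+ subsets in the fit of all 12 libraries overlapped a start.

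**Figure D5:**
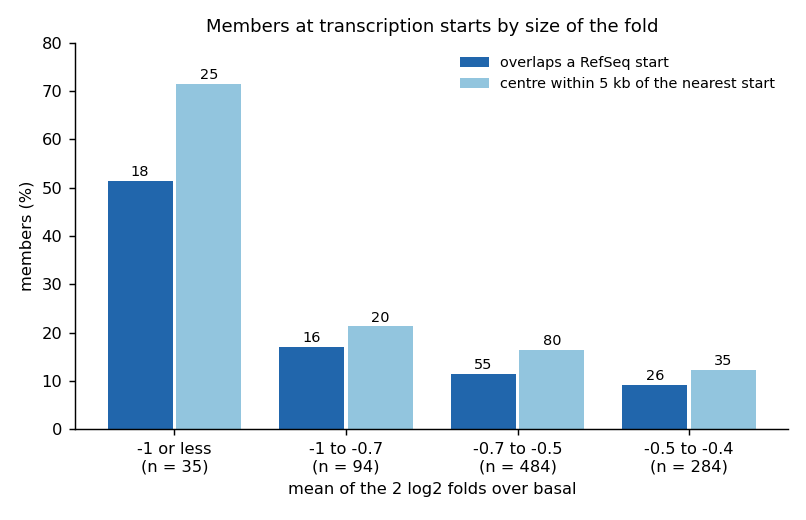
Share of members (y, percent) that overlap a RefSeq start window (dark) or have their centre within 5 kb of the nearest start (light), by the mean of the 2 log2 folds over basal (x), with counts above the bars. The share overlapping a start is 51.4% of the 35 members at -1 or less and 9.15% of the 284 members between -0.5 and -0.4.

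In annotation and basal enrichment the members were close to the other regions. By the authors' annotation 56.4% were intergenic and 36.1% intronic, against 58.6% and 32.8% of regions with that basal mean, and the median distance to the nearest start was 23.3 kb against 22.4 kb. The authors' log2 enrichment over input, measured in basal replicates 1 and 2 that the rule did not use, had a median of 1.40 in members against 1.44, and 1.96 in the 403 regions with gains. With regions split by that enrichment into 10 equal bins, members made up 3.52% to 5.28% of the 9 lower bins and 2.14% of the highest. The basal level per length was 3.33 CPM per kb in members against 3.23. The total basal level was 17.1 CPM against 25.6. By chromosome the share of members was 7.04% on chromosome 1, the highest among the assembled chromosomes, and 2.21% on chromosome 11, the lowest.

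Some members came in runs of neighbours. In all, 164 members formed 69 groups with gaps of at most 20 kb. The largest, at chr1:166190694-166320161 between Mael and Ildr2, held 7 members over 129 kb, and all 7 regions there with the basal minimum were members. Their log2 folds over basal ran from -0.56 to -0.41 in CD229+CD11c+ cells, from -0.75 to -0.43 in CD229+CD11c- cells and from -0.29 to -0.13 in CD229-CD11c- cells. A run of 6 at chr2:159848205-159948463, nearest to 4933416E03Rik, was likewise made of members alone, and that gene had 9 of its 25 regions with that basal mean among the members. Il15, a cytokine for lymphocytes and microglia, was the nearest gene of 5 members, at 143 to 214 kb from its start, where a nearest gene says little about which gene the region serves. The members had 740 nearest genes, of which 631 had 1 member. Neighbouring members share their source and are not replicates of one another.

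Fold size varied among the 5 longest members. The longest, 120 kb over Iqgap1, a scaffold of the cell cortex, held 528 ± 60.4 CPM in CD229+CD11c+ cells, 525 ± 46.3 in CD229+CD11c- cells and 705 ± 51.4 in basal cells (SD, n = 3 each), log2 folds of -0.42 in CD229+CD11c+ and -0.43 in CD229+CD11c- cells. The 109 kb region around Bhlhe40, filed under its neighbour 0610040F04Rik, had -0.53 in CD229+CD11c+ and -0.56 in CD229+CD11c- cells. A neighbouring 109 kb region, filed under Mir7661, had -0.66 in CD229+CD11c+ and -0.79 in CD229+CD11c- cells. Kcnma1, a potassium channel, had -0.57 in CD229+CD11c+ and -0.73 in CD229+CD11c- cells, and the zinc-finger repressor Trps1 had -0.53 in CD229+CD11c+ and -0.75 in CD229+CD11c- cells. In each of these the CD229+CD11c- mean in CPM lay below the CD229+CD11c+ mean, as in 64.0% of regions with that basal mean. On the TMM scale the log2 difference, CD229+CD11c+ over CD229+CD11c-, was -0.05 at Iqgap1 and -0.04 at the region around Bhlhe40. It was 0.07 at Mir7661, 0.09 at Kcnma1 and 0.15 at Trps1.

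Genes of activated microglia were among the nearest genes of the members. Disease-associated microglia genes are genes raised in microglia around damage and plaques. The list of them and the lists below were chosen with earlier results of these data known. The shares of these lists therefore describe the members and test nothing. Of 44 regions nearest to disease-associated microglia genes 8 (18.2%) were members, where 4.26% of all regions with that basal mean were. They lay at Lgals3, Apoe, Axl, Etl4, Igf1, Ch25h, Myo1e and Gpnmb. Igf1, a growth factor that microglia supply to myelinating cells, had a member with 3.75 ± 0.56 CPM in CD229+CD11c+ cells, 4.08 ± 0.19 in CD229+CD11c- cells and 10.2 ± 1.93 in basal cells (SD, n = 3 each). Ch25h, the enzyme that makes 25-hydroxycholesterol, had log2 folds of -1.21 in CD229+CD11c+ and -1.15 in CD229+CD11c- cells, and its CD229-CD11c- mean was 19.3, beside a basal mean of 19.1. Gpnmb, a glycoprotein of phagocytes, was the weakest of the 8, with -0.41 in CD229+CD11c+ and -0.45 in CD229+CD11c- cells.

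Of 28 regions nearest to interferon response genes, 7 (25%) were members. Oasl2, an antiviral oligoadenylate synthetase-like protein, had a broad region over its start with 69.8, 72.1 and 88.5 CPM in CD229+CD11c+ cells and 45.5, 55.1 and 58.5 in CD229+CD11c- cells. It held 102, 90.7 and 135 in CD229-CD11c- cells and 148, 129 and 122 in basal cells. Here the CD229+CD11c- libraries were the lowest and did not overlap those of any other group. The difference between the CD229+ subsets was 0.47 ± 0.13 in edgeR, which did not pass (adjusted p = 0.102). Irf7, the factor that amplifies the type I interferon response, had log2 folds of -1.21 in CD229+CD11c+ and -1.31 in CD229+CD11c- cells, and Slfn5 and Cmpk2, both induced by interferon, had -0.98 and -0.91 in CD229+CD11c+ and -1.11 and -1.08 in CD229+CD11c- cells. Rtp4 and Gbp5, also induced by interferon, had members 41.2 and 10.6 kb from their starts, with -0.62 and -0.49 in CD229+CD11c+ cells.

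Of 102 regions nearest to activation transcription factors, 9 (8.82%) were members. Besides Maff and Egr2 they included Egr1, with 3 members in 35 kb and lowest folds of -1.08 in CD229+CD11c+ and -0.82 in CD229+CD11c- cells. Ier2, an immediate early gene, and the orphan nuclear receptor Nr4a2 had members 89.8 and 17 kb from their starts, with log2 folds of -0.50 and -0.58 in CD229+CD11c+ cells. Klf4, a zinc-finger factor of myeloid cells, was the nearest gene of 2 members at 324 and 581 kb. Of 51 regions nearest to cytokine and NF-kappa-B genes 8 (15.7%) were members, at Nfkbia, the inhibitor that holds NF-kappa-B in the cytoplasm, the adhesion molecule Vcam1, Il15 and Lif. Their lowest folds in CD229+CD11c+ cells were -0.70, -0.69, -0.62 and -0.51.

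Of 94 regions nearest to growth factors 7 (7.45%) were members, with Pdgfa at -1.44, the VEGF receptor Flt1 at -0.995, Fgf2 at -0.72, Pdgfc at -0.52 and Btc at -0.40 in CD229+CD11c+ cells. Of 71 nearest to genes of cAMP and prostanoid signalling 5 (7.04%) were members. Ptger4, a prostaglandin E2 receptor that raises cAMP, had 19.1 ± 2.43 CPM in CD229+CD11c+ cells, 19.8 ± 0.89 in CD229+CD11c- cells and 37.5 ± 5.02 in basal cells (SD, n = 3 each), over its start. Ptger3, another receptor of the same ligand, the phosphodiesterase Pde4b and the adenylyl cyclase Adcy7 had log2 folds of -0.64, -0.63 and -0.50 in CD229+CD11c+ cells. Of 104 nearest to membrane and actin genes 8 (7.69%) were members, among them Inf2, Anxa2, Rai14, Lmna and Ezr with regions over their starts.

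Of 20 regions nearest to lipid handling genes 3 (15.0%) were members, at Apoe, Ch25h and the lipoprotein receptor Scarb1. Of 38 nearest to Polycomb and H3K27 demethylase genes 3 (7.89%) were members, at Jarid2 and Aebp2, both accessory subunits of PRC2, with 2 members at 69.6 and 105 kb from the start of Jarid2 and 1 at 309 kb from that of Aebp2. The class II antigen presentation gene H2-Ab1 had the only member among 11 regions of its list, with -0.74 in CD229+CD11c+ and -0.53 in CD229+CD11c- cells. A list of cell cycle and DNA replication genes, put together after the values were seen, had 9 members among 46 regions. They lay at Wee1, Mki67, Rrm2, Pif1, Mybl2, Fam83d, Sapcd2, Nuf2 and Cenpf. At Wee1, a kinase that holds back mitosis, the level was 7.83 ± 0.50 CPM in CD229+CD11c+ cells, 4.62 ± 0.60 in CD229+CD11c- cells and 15.2 ± 3.48 in basal cells (SD, n = 3 each). At Mki67, whose protein marks cycling cells, it was 5.49 in CD229+CD11c+ cells, 4.62 in CD229+CD11c- cells and 11.8 in basal cells.

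No member was nearest to a gene of several other lists. None of 194 regions of developmental transcription factors, 75 of neuronal, 27 of homeostatic microglia and 15 of peripheral macrophage genes was a member. Of all regions with that basal mean 4.26% were members, so 0 of 27 and 0 of 15 say little. The homeostatic regions had median log2 folds over basal of -0.22 in CD229+CD11c+ and -0.27 in CD229+CD11c- cells. Over all regions with that basal mean the medians were -0.08 and -0.16. Those of developmental transcription factors had 0.18 and 0.07. Marker genes of other cell types had 1 member of 28 regions for the oligodendrocyte lineage (Enpp6), 1 of 38 for astrocytes (Aldoc), 2 of 51 for endothelial and mural cells (Flt1) and 2 of 30 for neutrophils and dendritic cells (Klf4). CD229+CD11c+ and CD229+CD11c- cells were also compared over all regions of a list, whether members or not. EdgeR with adjusted p-values called 1 of 64 lower for disease-associated microglia and 0 of 34 for the interferon response. It called 4 of 122 lower for activation transcription factors and 6 of 242 for developmental transcription factors, and 0 higher in each of these lists. Growth factors had 2 lower and 1 higher of 127, and endothelial and mural cells 2 lower and 1 higher of 71. Over all regions 0.771% were called lower and 0.0532% higher. The lists share genes, as Apoe and Ch25h stand in 2 of them. The mark reads silenced genes and not RNA, so the sorted cells could be checked only by it, and only 8 of 24 homeostatic marker genes were the nearest gene of any region.

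The members with the most extreme levels in CD229-CD11c- cells overlapped no start. The lowest log2 folds of CD229-CD11c- over basal were -0.70 at Aebp2, -0.62 at Sh2d4b and Gpr141, and -0.57 at Kdm4d and Gm27162. In these all 3 CD229-CD11c- libraries lay below all basal libraries, as in 5.77% of all regions. They were picked by this fold, which favours such separation. At Gm27162 the mean was 6.92 CPM in CD229+CD11c+ cells, 6.62 in CD229+CD11c- cells and 6.90 in CD229-CD11c- cells, against 10.3 in basal cells. The highest were 0.22 at Hlcs, 0.20 at Pomc, 0.16 at Tph2 and Kyat3, and 0.15 at Scarb1. At Hlcs the mean was 8.13 in CD229+CD11c+ cells, 7.88 in CD229+CD11c- cells and 12.6 in CD229-CD11c- cells, against 10.7 in basal cells. None of these 10 differences was called by edgeR with adjusted p-values, which were 0.98 for each.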

How the data were processed

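The deposited table holds raw tag counts per region, made by the authors with HOMER in mm10 per the file headers, for 12 H3K27me3 libraries; Bowtie2 2.3.4.1, fastp 0.20.0, STAR 2.7.0f and DESeq2 stand in the submitters' processing notes with no role. Regions were called by the authors on basal replicates 1 and 2 against input, per the file headers. From the authors' deposited tables came the log2 enrichment over input and log2 folds, their p-values, the region length and the annotation; the normalized signal and the peak score per the file headers were not used in any result. Input was not subtracted and no genome-wide total was used.

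Levels and the rule use counts scaled to CPM over the regions. Tests use edgeR 4.0.16 in R 4.3.3 (TMM, robust quasi-likelihood fit, 4 groups in 1 model; filterByExpr removed 0 regions, so all 897 members were tested), with Benjamini-Hochberg adjustment over 26326 regions and a threshold of 0.05; DESeq2 1.42.0 was an alternative. The fit was tested on simulated data. The labels number the replicates of the 3 cuprizone groups alike; in deviations from group means, same-numbered libraries correlated at 0.237, 0.134 and 0.417 between CD229+CD11c+ and CD229-CD11c- cells and at 0.283, 0.128 and 0.457 between CD229+CD11c- and CD229-CD11c- cells, all over 0.1, so these were taken as paired by number. Unlike-numbered libraries among replicates 1 and 2 correlated at like size. They stood at 0.184 and 0.125 for CD229+CD11c+ and at 0.248 and 0.145 for CD229+CD11c- with CD229-CD11c- cells. Unlike-numbered pairs with a replicate 3 ran from -0.373 to -0.182. Replicates 3 are also the libraries without the PE150 tag, so pairing by number cannot be told apart from the tag. Start windows came from RefSeq, GRCm38.p6; starts implied by the authors' distances lay within 10 bp of a RefSeq start for 75.0% of 25438 regions, and of 40 gene names turned into dates 38 were restored through RefSeq accessions.

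Named regions were the 15 members with the lowest mean fold, members nearest to genes of 10 lists (the region with the lowest mean fold per gene), up to 5 each way called between the CD229+ subsets, the 5 with the highest basal level and 5 longest, the 5 highest and 5 lowest in CD229-CD11c- over basal, and the 3 nearest the limit on each side; some items are not reported here. The members and lists were chosen with earlier results of these data known, and the cell cycle list was added after the values were seen.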

Additional observations from a re-analysis of the deposited data

Results flagged for a closer look

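The fold over basal microglia differed between the 2 CD229+ subsets at Egr2, by -1.99 on the log2 scale in CD229+CD11c+ relative to CD229+CD11c- cells, and at Lgals3, by -1.32, in edgeR's test of the difference itself. The log2 ratio of group means was -1.96 at Egr2 and -1.27 at Lgals3 among the libraries with the PE150 tag, and -1.93 and -1.29 between the 2 libraries without it.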

How the results depend on the processing

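The number of members depended most on scaling and limits. It was 361 with TMM factors, 349 with DESeq2 size factors, 334 with folds less the median of regions of like enrichment over input (321 of them shared), 2258 at -0.3, 368 at -0.5, 23 at -1, 351 with a basal mean of 20, and 1397 in tagged libraries alone (734 shared). Leaving out 1 library gave 793 to 1359, the highest without basal replicate 5. The median fold of CD229+CD11c- over basal was -0.573 on total counts; the other medians moved by less than the spread between libraries under every scaling, covariate and left-out library. The share overlapping a start was 17.4% at -0.5 and 18.6% with folds less the median of regions of like enrichment.

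Members called in CD229-CD11c- against basal numbered 1 with the tag as a covariate, 44 in tagged libraries alone and 0 to 2 with 1 library left out. Members called in CD229+CD11c+ against CD229+CD11c- numbered 1 with DESeq2, 4 with only the 2 groups fitted, 19 with the tag as a covariate, 12 in tagged libraries alone and 1 to 11 with 1 library left out. No share over all regions was taken for DESeq2, for the fit of 2 groups, or for left-out libraries other than CD229-CD11c- replicate 3. With the replicate block in the 9 cuprizone libraries 21 were called, 11 lower and 10 higher (6.51% of all regions lower and 1.85% higher). Without the block 2 were called lower and 0 higher (0.555% of all regions lower and 0.0076% higher). The median was -0.009 with the block. Same-numbered CD229+CD11c+ and CD229+CD11c- libraries correlated at 0.200, 0.083 and 0.331. With 1 pair under 0.1 they were not taken as paired, although both subsets were taken as paired with CD229-CD11c- cells. The limit of 0.1 does not settle the pairing, and the number of members called depends on it. Against basal no paired analysis was possible because the groups share 1 replicate number. The causes were not tested. The tagged-only fits, the block for comparisons with CD229-CD11c- cells and the DESeq2 medians were chosen after seeing the data. With 11 to 40 tags in the lowest libraries at Rab7b, Lgals3 and Egr2, counting error limits the folds there.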
